A study of Mus musculus with 4 samples.

Results

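The 10 genes described here encode subunits of the Polycomb repressive complexes, and they were taken by name from the gene table of an RNA-seq series on mouse embryonic stem cells (ESCs). Of the 55418 genes in the table, the members are Ezh2, Ezh1, Eed, Suz12 and Jarid2 of Polycomb repressive complex 2 (PRC2), and Rnf2, Ring1, Cbx7, Cbx2 and Cbx8 of Polycomb repressive complex 1 (PRC1). All 10 passed the filter on low counts, as did 18444 genes in all. The series compared E14 ESCs of wild-type (WT) genotype with Pim3-/- ESCs made by CRISPR/Cas9 with a pair of guide RNAs against Pim3, a serine/threonine kinase gene. Each group held 2 libraries, from 2 WT samples, not stated to be separate cultures, and 2 Pim3-/- clones. Both were grown on gelatin in medium with serum and LIF, the cytokine that holds ESCs undifferentiated, and the strain label of all 4 libraries is 12910la. Which clone carries which replicate number is not stated, and a difference between genotypes cannot be told apart from a difference between the WT samples and the clones. The libraries held 22029427 to 25668307 counts. The targeted gene, Pim3, had 4392 and 4953 raw counts in WT and 4970 and 4804 in the Pim3-/- libraries. After TMM scaling these were 229 and 219 CPM (counts per 1e+06 scaled counts) in WT and 186 CPM in both Pim3-/- libraries. Its log2 fold change was -0.27, with SE (standard error) 0.17 and adjusted p = 0.251 with edgeR, so the count per gene does not check the knockout, and directions are those of the libraries as labelled.

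Polycomb complexes keep developmental genes silent in ESCs. PRC2 places methyl groups on lysine 27 of histone H3 through its catalytic subunit EZH2 or EZH1, which is active only with EED and SUZ12. EED also reads the finished mark, and JARID2 is an accessory subunit that helps bring the complex to chromatin. PRC1 attaches ubiquitin to histone H2A through RING1 or RNF2 (RING1B), and a CBX protein lets canonical PRC1 bind the methylated H3. CBX7 is known as the main CBX protein of PRC1 in undifferentiated ESCs, while CBX2 and CBX8 are associated with differentiating cells.

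In GRCm38, with the GENCODE annotation, Ezh2 lies at chr6:47530139-47595341, Eed at chr7:89954654-89980983 and Ezh1 at chr11:101191115-101226463, all on the minus strand. Suz12 is at chr11:79993106-80034123 and Jarid2 at chr13:44729474-44921643, both on the plus strand. Of the PRC1 genes, Rnf2 is at chr1:151458004-151500955, Ring1 at chr17:34020792-34024680 and Cbx7 at chr15:79915807-79971119, on the minus strand. Cbx2 (chr11:119022962-119031270, plus strand) and Cbx8 (chr11:119036305-119040969, minus strand) are neighbours on chromosome 11. Exons of Ezh2, Suz12, Rnf2 and Cbx7 share 174, 178, 158 and 100 bases with a gene on the opposite strand (Gm26625, Gm26563, Trmt1l and Apobec3), and since strand use in counting is not stated, reads there may belong to either gene.

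Promoter sequences, 250 bases before to 50 bases after the start site, were taken from RefSeq (GRCm38.p6). They matched 9 of the 10 members, and Cbx2 had no entry. The 3 core PRC2 subunits that work as 1 enzyme are shown, because the log2 fold changes of their transcripts below differed in sign. Only that of Eed passed the test, and differences between the genes were not tested. Shown with them is Ezhip, a PRC2 inhibitor gene listed as AU022751 in the table. Capitals mark matches on either strand to TTTGGCGC or TTTCGCGC (E2F), CACGTG (E-box), CCAAT (NF-Y), CCGGAAG (ETS) and GGGCGG (Sp1), and no matches overlapped in these 4 sequences.
Eed, chr7:89980927-89981226, minus strand: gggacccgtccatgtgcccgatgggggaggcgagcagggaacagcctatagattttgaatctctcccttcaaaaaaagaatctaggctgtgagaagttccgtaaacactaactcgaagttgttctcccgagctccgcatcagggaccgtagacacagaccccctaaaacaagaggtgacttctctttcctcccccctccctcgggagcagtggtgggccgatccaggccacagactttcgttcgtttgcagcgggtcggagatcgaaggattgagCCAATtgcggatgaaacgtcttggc
Suz12, chr11:79992856-79993155, plus strand: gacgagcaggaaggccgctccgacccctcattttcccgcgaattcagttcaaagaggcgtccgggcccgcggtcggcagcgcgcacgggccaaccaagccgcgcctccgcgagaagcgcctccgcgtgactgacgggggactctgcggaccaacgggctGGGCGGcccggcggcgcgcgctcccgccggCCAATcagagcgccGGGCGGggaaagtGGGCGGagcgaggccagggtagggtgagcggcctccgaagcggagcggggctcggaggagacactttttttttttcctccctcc
Ezh2, chr6:47594981-47595280, minus strand: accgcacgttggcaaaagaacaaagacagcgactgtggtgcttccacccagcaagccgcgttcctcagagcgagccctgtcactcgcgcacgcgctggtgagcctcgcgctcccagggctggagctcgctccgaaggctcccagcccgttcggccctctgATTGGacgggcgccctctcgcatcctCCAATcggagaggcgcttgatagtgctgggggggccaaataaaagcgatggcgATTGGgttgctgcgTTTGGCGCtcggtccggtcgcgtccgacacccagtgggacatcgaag
Ezhip, chrX:6083371-6083670, minus strand: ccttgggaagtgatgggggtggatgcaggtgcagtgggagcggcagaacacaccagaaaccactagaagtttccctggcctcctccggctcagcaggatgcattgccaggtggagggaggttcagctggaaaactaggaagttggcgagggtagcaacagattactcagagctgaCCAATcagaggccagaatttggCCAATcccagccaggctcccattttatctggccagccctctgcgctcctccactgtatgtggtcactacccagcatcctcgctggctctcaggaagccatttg
The Ezh2 promoter held 3 CCAAT matches and a TTTGGCGC match that begins 4 bases into the transcript, a motif found in 0.514% of 32851 promoters of this length. The Suz12 promoter held 3 GGGCGG matches and 1 CCAAT match, and those motifs were in 35.7% and 37.4% of promoters. The Eed promoter had 1 CCAAT match, inside the transcribed part at base 26. CpG dinucleotides numbered 41 in the Suz12, 31 in the Ezh2 and 17 in the Eed promoter, against a median of 7 over all promoters (quartiles 3 and 20), and the Ezhip promoter had 5. The other members' promoters had 23 to 37. These matches are descriptions of letters and not of bound sites.

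Of the 10 members, Eed fell and Cbx2 rose in Pim3-/- ESCs, and the other 8 did not pass the test (quasi-likelihood test of edgeR, Benjamini-Hochberg adjusted p under 0.05). Over all tested genes, 33.8% passed, 17.6% as higher and 16.2% as lower, so that 1 of 10 in each direction is below the share among all genes. The libraries of the groups did not overlap for 6 members, against 72.5% of all tested genes. The median log2 fold change was 0.07 for the members and 0.07 for all tested genes. Values below are CPM after TMM scaling unless stated otherwise. If library totals replace the TMM factors, every log2 fold change moves up by about 0.449, which turned the sign of Ezh2, Rnf2 and Ring1. In bulk samples, fewer cells of a type and less RNA per cell cannot be told apart.

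**Figure D1:**
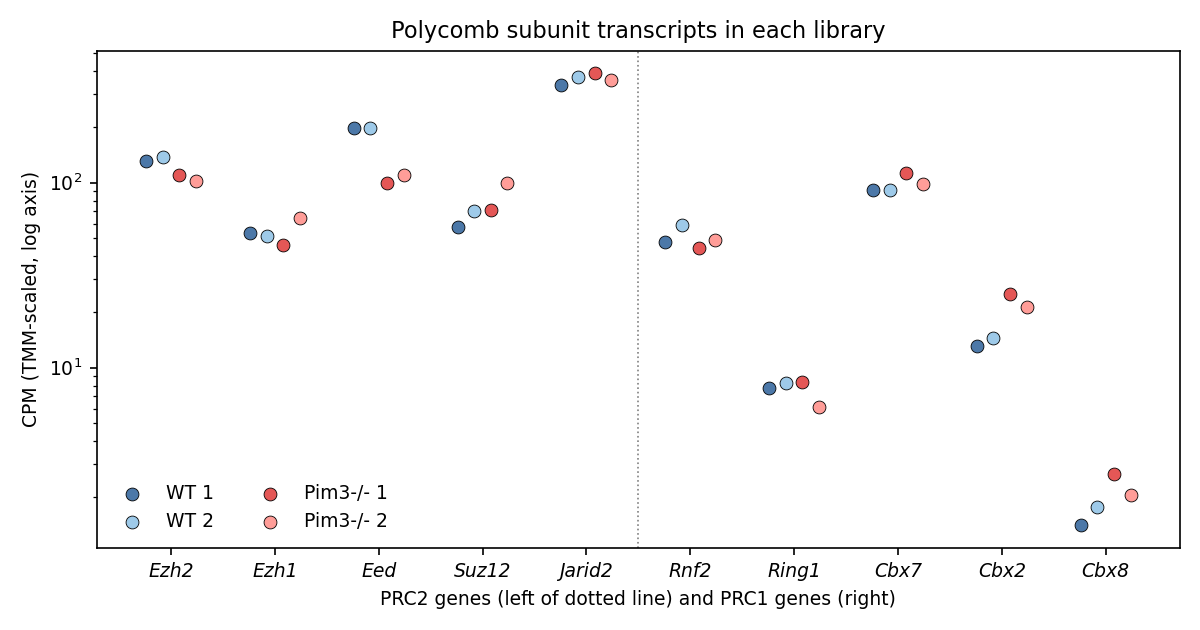
CPM after TMM scaling (log axis) of the 10 subunit genes, 1 point per library, with WT in blue and Pim3-/- in red. Eed in Pim3-/- ESCs, at 99.7 and 110 CPM, sits below both WT points near 197, and both Cbx2 points sit above the WT points.

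Eed, the subunit that binds the finished H3K27 mark, had the log2 fold change of largest size among the members with TMM factors. That of Cbx2 was larger with upper-quartile factors (0.89 against -0.77 for Eed) and with library totals (1.19 against -0.46). With library totals Cbx8 (1.01), Suz12 (0.87), Cbx7 (0.65), Jarid2 (0.52) and Ezh1 (0.52) also exceeded Eed in size. Eed had 196 and 197 CPM in the WT libraries and 99.7 and 110 CPM in the Pim3-/- libraries. The groups did not overlap, and each group's libraries lay close together. The level was 1.88-fold lower in Pim3-/- ESCs, with a log2 fold change of -0.91 (SE 0.17, 95% confidence interval -1.30 to -0.52, adjusted p = 0.00881 with edgeR). The log2 fold change was -0.46 (adjusted p = 0.0683 with edgeR) with library totals, -0.96 (adjusted p = 0.0976 with edgeR) without WT replicate 1 and -0.99 (adjusted p = 0.0749 with edgeR) without WT replicate 2. Eed has 3828 exon bases and averages between 100 and 300 CPM. Of all tested genes in that range of level, 43.9% fell and 4.59% rose, and of genes with at least 10 CPM and 2000 to 4000 exon bases 33.7% fell and 7.3% rose. The share of these trends in the lower Eed level was not tested. E230029C05Rik overlaps Eed by 261 exon bases on the opposite strand and had 211 to 324 counts per library, against 2663 to 4469 for Eed, and the part of shared reads was not tested.

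Suz12, which holds the enzyme together, had 57.5 and 69.9 CPM in WT and 71.2 and 99.97 CPM in Pim3-/- ESCs. Both Pim3-/- libraries were above both WT libraries, but the lower Pim3-/- library was near the higher WT library. The log2 fold change of 0.43 (SE 0.21, 95% confidence interval -0.07 to 0.92) did not pass the test (adjusted p = 0.154 with edgeR). Among the fits that kept all libraries, it passed only with library totals (0.87, adjusted p = 0.0173 with edgeR). The log2 fold change was 0.63 without Pim3-/- replicate 1 and 0.14 without Pim3-/- replicate 2. It was 0.24 without WT replicate 1 and 0.50 without WT replicate 2, so its size depended on the library left out.

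Ezh2, the main methyltransferase of dividing cells, had 132 and 137 CPM in WT and 110 and 102 CPM in Pim3-/- ESCs. The groups did not overlap, and the log2 fold change was -0.35 (SE 0.16, adjusted p = 0.134 with edgeR). It passed in no fit that kept all libraries. With 1 library left out the log2 fold change ranged from -0.43 to -0.31, and with library totals it had the opposite sign. Ezh1, the paralogue typical of non-dividing cells, had 53.3 and 51.7 CPM in WT and 45.7 and 64.2 CPM in Pim3-/- ESCs. Its Pim3-/- libraries lay on either side of WT (log2 fold change 0.07, SE 0.20, adjusted p = 0.82 with edgeR). Jarid2 had the highest count of the members, with 335 and 373 CPM in WT and 389 and 356 CPM in Pim3-/- ESCs. The groups overlapped, and the log2 fold change was 0.08 (SE 0.18, adjusted p = 0.774 with edgeR).

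The proportions of the PRC2 core genes can be compared within a library, where no scaling between libraries enters. All but the Ezh1 to Ezh2 ratio were chosen after the values were seen. No test was run on them, and the smallest p of an exact permutation test of 2 against 2 libraries is 0.333. Per kb of exon, Eed exceeded Suz12 by 4.41-fold and 3.64-fold in the WT libraries and by 1.81-fold and 1.42-fold in the Pim3-/- libraries. Eed made up 57.1% and 55.3% of the summed Eed, Suz12, Ezh2 and Ezh1 counts per kb in WT, and 41.3% and 39.4% in Pim3-/- ESCs. The Suz12 share was 13.0% and 15.2% in WT and 22.9% and 27.8% in Pim3-/- ESCs. The Ezh2 share overlapped between the groups, with 22% and 22.1% in WT and 26% and 20.9% in Pim3-/- ESCs. The Ezh1 to Ezh2 ratio per kb was 0.364 and 0.339 in WT and 0.375 and 0.568 in Pim3-/- ESCs, where replicate 2 alone stood clearly above WT.

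**Figure D2:**
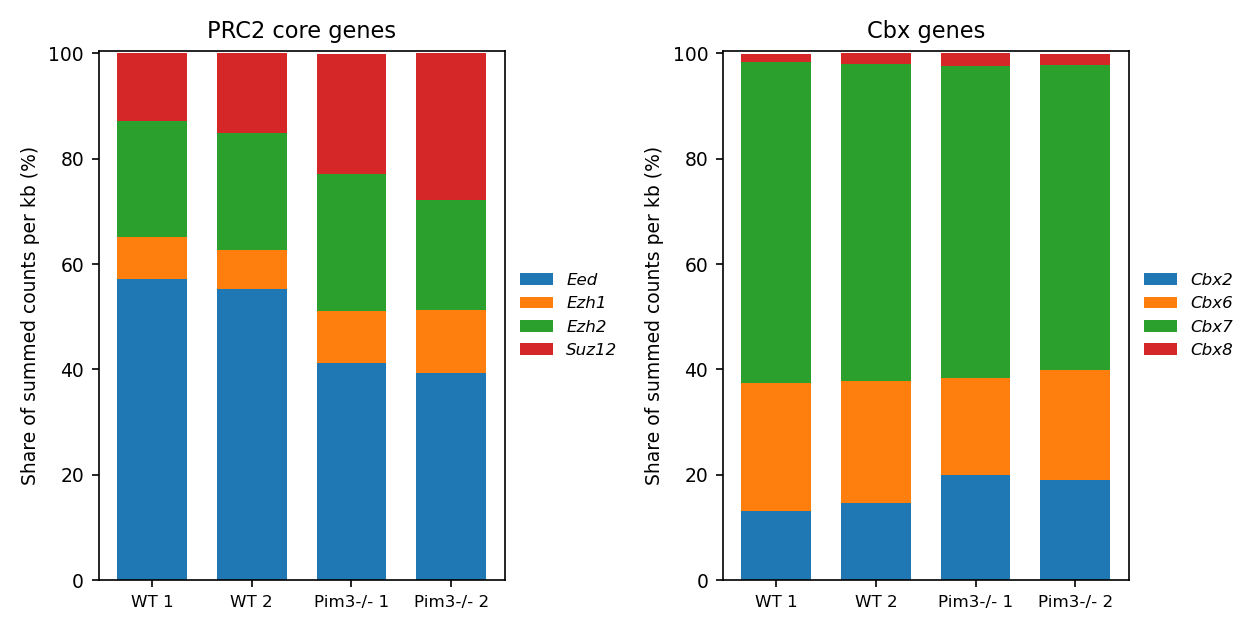
Share of each gene in the summed counts per kb of exon (%), 1 bar per library, for the PRC2 core genes (left) and Cbx2, Cbx6, Cbx7 and Cbx8 of PRC1 (right). The Eed segment shrinks from 57.1% and 55.3% in WT to 41.3% and 39.4% in Pim3-/- ESCs, while Cbx7 stays the largest segment of the 4 in every library.

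Of the PRC1 genes, Rnf2, the main E3 ligase subunit of ESCs, had 47.8 and 58.8 CPM in WT and 44.2 and 48.9 CPM in Pim3-/- ESCs. Its groups overlapped (log2 fold change -0.20, SE 0.18, adjusted p = 0.412 with edgeR). Ring1, its paralogue, had 7.77 and 8.29 CPM in WT and 8.38 and 6.12 CPM in Pim3-/- ESCs, which also overlapped (log2 fold change -0.15, SE 0.26, adjusted p = 0.688 with edgeR). The Ring1 to Rnf2 ratio per kb was 0.207 and 0.18 in WT and 0.242 and 0.159 in Pim3-/- ESCs, with the WT values inside the range of the Pim3-/- values.

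Cbx2 was the member that rose. It had 13.0 and 14.5 CPM in WT and 24.9 and 21.2 CPM in Pim3-/- ESCs, and the groups did not overlap. The level was 1.68-fold higher in Pim3-/- ESCs, with a log2 fold change of 0.74 (SE 0.20, 95% confidence interval 0.29 to 1.20, adjusted p = 0.0243 with edgeR). The call was lost without WT replicate 1 (0.62, adjusted p = 0.321 with edgeR) and without WT replicate 2 (0.74, adjusted p = 0.212 with edgeR), as most calls were: without WT replicate 1, 402 genes in all were higher and 373 lower. Among all tested genes of 10 to 30 CPM, 17.6% were higher. Cbx7, the most abundant of Cbx2, Cbx6, Cbx7 and Cbx8, had 91.6 and 91.2 CPM in WT and 113 and 97.9 CPM in Pim3-/- ESCs. Its groups did not overlap, but the log2 fold change of 0.20 (SE 0.17) did not pass the test (adjusted p = 0.369 with edgeR) except with library totals (0.65, adjusted p = 0.021 with edgeR). Cbx8, the neighbour of Cbx2, was the least abundant member, with 1.41 and 1.76 CPM in WT and 2.66 and 2.05 CPM in Pim3-/- ESCs, from 27 to 71 counts per library. The log2 fold change was 0.57 with a 95% confidence interval of -0.31 to 1.44 (adjusted p = 0.271 with edgeR), so a change of the size seen for Cbx2 was not detectable at this depth.

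Within a library, Cbx2 stood at 0.217 and 0.242 of Cbx7 per kb in WT and at 0.337 and 0.331 in Pim3-/- ESCs. Cbx8 stood at 0.0271 and 0.0341 of Cbx7 in WT and at 0.0417 and 0.037 in Pim3-/- ESCs. Both ratios were higher in both Pim3-/- libraries, though that of Cbx8 rests on 27 to 71 Cbx8 counts per library. Cbx7 nevertheless held 57.9% to 60.9% of the summed Cbx2, Cbx6, Cbx7 and Cbx8 counts per kb in all 4 libraries, and Cbx2 held 13.2% and 14.6% in WT and 20% and 19.1% in Pim3-/- ESCs.

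**Figure D3:**
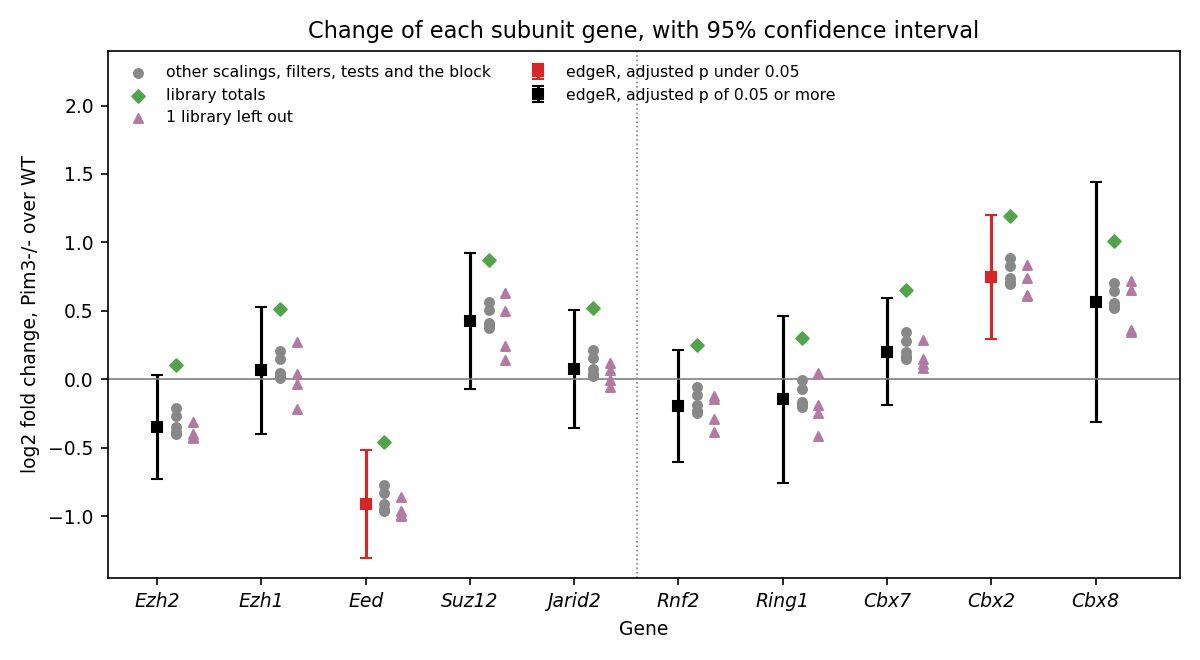
log2 fold change (Pim3-/- over WT) of each member with the 95% confidence interval of edgeR's quasi-likelihood fit (squares, red where the adjusted p was under 0.05). Grey circles, green diamonds and violet triangles are the alternatives, and only the diamonds, library totals, lie well above the rest for every gene.

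On the scale of CPM per kb of exon, the order of the levels in WT was Eed (51.4), Jarid2 (36.4), Ezh2 (20.1), Cbx7 (14.1), Rnf2 (12.9), Suz12 (12.9), Ezh1 (7.06), Cbx2 (3.23), Ring1 (2.48) and Cbx8 (0.432). Cbx7, Rnf2 and Suz12 overlapped in their libraries and the other neighbours did not. In Pim3-/- ESCs Jarid2 (38.4) was first and Eed (27.3) second, and Suz12 (17.3), Cbx7 (16.2) and Ezh2 (15.8) followed, with neighbours overlapping. Below them stood Rnf2 (11.3), Ezh1 (7.39), Cbx2 (5.42), Ring1 (2.24) and Cbx8 (0.641).

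The other genes of these complexes and of their opponents were taken from lists of 62 genes, of which 61 were tested. Of these, 19 rose, 5 fell and 37 did not pass, with a median log2 fold change of 0.40 against 0.07 over all tested genes. Among all tested genes, 17.6% rose and 16.2% fell. With library totals 39 rose and 1 fell, where of all 18444 tested genes 6594 rose and 1094 fell. Leaving out a library moved the counts of the lists, and those of all tested genes moved as well. Many of the 61 genes have long transcripts. Among all genes with at least 10 CPM and 8000 exon bases or more 22.5% rose and 9.33% fell, against 3.4% and 56.1% of genes of 1000 to 2000 bases. Across 9635 genes of at least 10 CPM, which are not independent replicates, the Spearman rho of exon length and log2 fold change was 0.42. The part of length in the list counts was not tested.

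**Figure D4:**
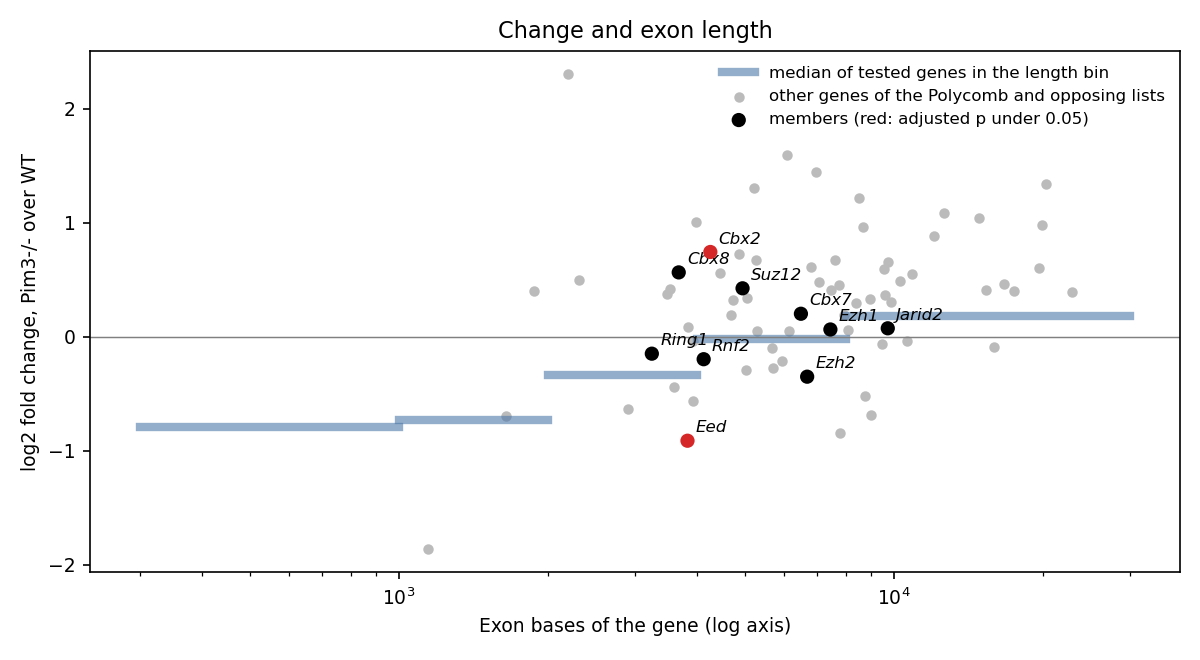
log2 fold change (Pim3-/- over WT) against exon bases (log axis) for the 10 members (labelled) and the 61 tested genes of the other lists (grey), with the median of tested genes of at least 10 CPM in 5 length bins (blue bars, drawn to an arbitrary end at both sides). The medians rise from -0.79 below 1000 bases to 0.18 at 8000 bases or more, and Eed lies below its bin's median of -0.34.

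Among 9 other PRC2 genes, 1 rose and 1 fell, and the median log2 fold change was 0.31. Neither count is above the 17.6% and 16.2% of all tested genes. AU022751 (Ezhip), which encodes an inhibitor of PRC2 known from germ cells, had 3.86 and 3.26 CPM in WT and 10.1 and 24.99 CPM in Pim3-/- ESCs. All Pim3-/- values were higher, but the clones differed widely (log2 fold change 2.30, SE 0.43, adjusted p = 0.00881 with edgeR). Relative to Ezh2 per kb it stood at 0.089 and 0.0722 in WT and at 0.281 and 0.747 in Pim3-/- ESCs. Rbbp7, a histone-binding subunit that PRC2 shares with other complexes, had 288 and 275 CPM in WT and 186 and 178 CPM in Pim3-/- ESCs (log2 fold change -0.63, adjusted p = 0.0281 with edgeR).

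Among 9 other canonical PRC1 genes, 2 rose, none fell and the median log2 fold change was 0.45. The count that rose is near the 17.6% of all tested genes. Scml2, a germline Polycomb gene, went from 49 and 73 counts in WT to 156 and 301 counts in Pim3-/- ESCs (log2 fold change 1.59, adjusted p = 0.0187 with edgeR).

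Among 17 genes of variant PRC1, the forms that lack a CBX protein, 6 rose and 1 fell, against 17.6% and 16.2% of all tested genes. Their median log2 fold change was 0.39. Pcgf5, which defines one of these forms, had 11.9 and 12.9 CPM in WT and 26.9 and 25.8 CPM in Pim3-/- ESCs (log2 fold change 1.09, adjusted p = 0.00692 with edgeR). Bcorl1, a corepressor gene, had 9.70 and 11.2 CPM in WT and 30.2 and 18.6 CPM in Pim3-/- ESCs (log2 fold change 1.22, adjusted p = 0.0142 with edgeR). Usp7, a deubiquitinase gene, fell from 356 and 369 CPM to 203 and 202 CPM (log2 fold change -0.84, adjusted p = 0.0122 with edgeR). Of the 61 genes Usp7 had the pattern over the 4 libraries nearest to that of Eed (Euclidean distance 0.13 in centred log2 CPM), and Pcgf3 the one nearest to that of Cbx2 (0.172). Only 5 of the 61 genes fell, and distances to all tested genes were not computed.

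Of the opposing activities, 3 of 9 tested genes of the H2A deubiquitinase list rose, and none fell, against 17.6% and 16.2% of all tested genes. They were Foxk1 (log2 fold change 0.68, adjusted p = 0.0439 with edgeR), Foxk2 (0.68, adjusted p = 0.0184 with edgeR) and Mbd6 (0.56, adjusted p = 0.0338 with edgeR). These encode partners of BAP1, a deubiquitinase of the list, and no deubiquitinase gene of the list passed the test. Bap1 had 87.9 and 90.0 CPM in WT and 111 and 92.6 CPM in Pim3-/- ESCs. Kdm6b, an H3K27 demethylase gene, rose from 19.4 and 24.4 CPM to 61.5 and 57.8 CPM (log2 fold change 1.44, SE 0.18, adjusted p = 0.00395 with edgeR), while its paralogue Kdm6a had 11.9 and 14.9 CPM in WT and 12.9 and 20.03 CPM in Pim3-/- ESCs.

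Of 15 Trithorax and COMPASS genes, whose products methylate H3 at active genes, 6 rose and 3 fell, against 17.6% and 16.2% of all tested genes. Kmt2c had 20.6 and 21.9 CPM in WT and 54.2 and 53.3 CPM in Pim3-/- ESCs (log2 fold change 1.34, adjusted p = 0.00372 with edgeR), and Ash1l rose by 1.05 on the log2 scale (adjusted p = 0.00896 with edgeR). Both are methyltransferase genes with over 8000 exon bases. Dpy30, a small shared subunit, had 336 and 272 CPM in WT and 99.0 and 68.6 CPM in Pim3-/- ESCs (log2 fold change -1.86, adjusted p = 0.00402 with edgeR), and Ash2l, another shared subunit, changed by -0.69 on the log2 scale (adjusted p = 0.0243 with edgeR). Dpy30 has 1146 exon bases, in a range of length where 56.1% of genes with at least 10 CPM fell.

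**Figure D5:**
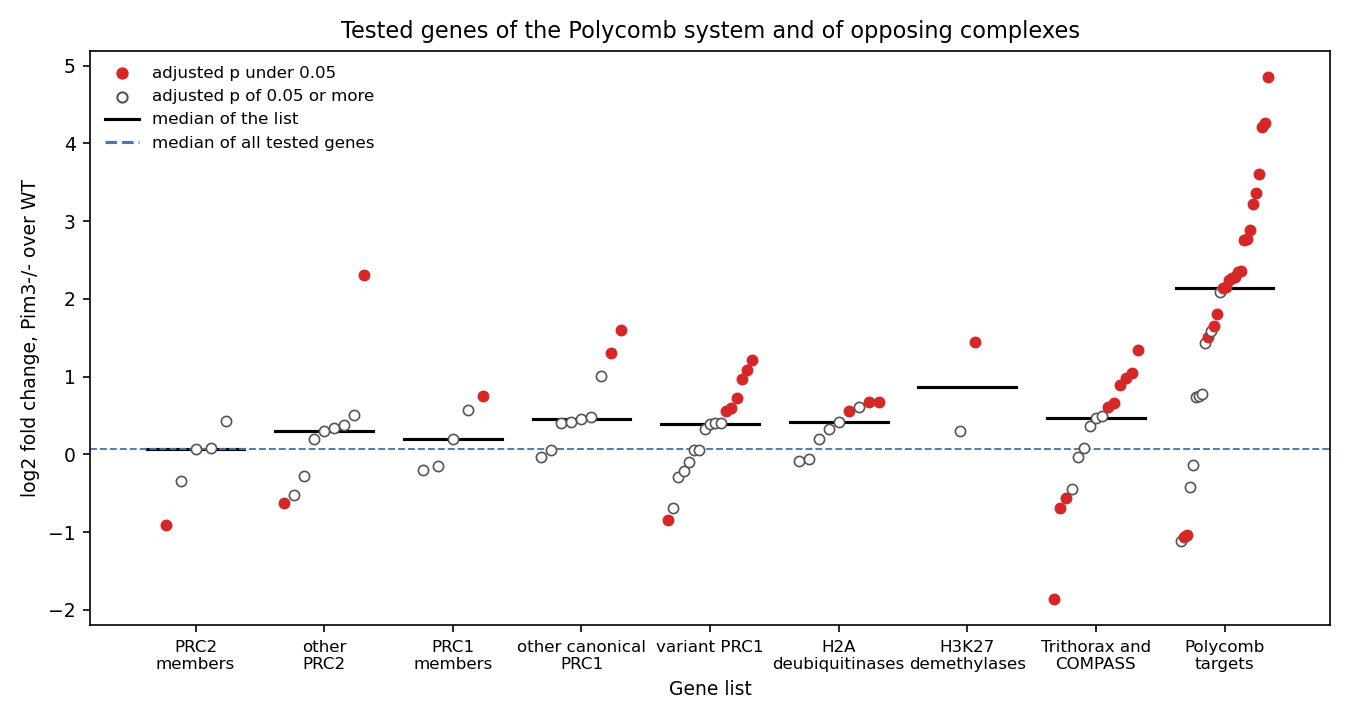
log2 fold change (Pim3-/- over WT) of each tested gene by list, filled red where the adjusted p was under 0.05 by edgeR's quasi-likelihood test. The black bars are list medians (2.14 for Polycomb target genes) and the dashed line is the median of all tested genes, 0.07.

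Developmental genes known as Polycomb targets in ESCs were taken as a list of 52, of which 30 were tested and 22 had counts too low for a test, at most 21 in any library. Of the 30, 19 rose, 2 fell and 9 did not pass, with a median log2 fold change of 2.14. Most were near silence in WT, with 16 of the 30 below 1 CPM on average there, and among all 3402 tested genes below 1 CPM on average in WT 33.9% rose and 0.823% fell. The filter keeps a gene that is silent in WT only if it is higher in Pim3-/- ESCs, so the count is no support for a change of the list. Pax5, at most 1 count in WT, had 10 and 34 counts in Pim3-/- ESCs and was at least 5.86-fold higher. Foxa1, at most 3 counts in WT, had 57 and 44 counts and was at least 13.3-fold higher, both against a floor of 3 counts per library.

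The 2 targets that fell were the cell cycle inhibitor genes of 1 locus. Cdkn2a had 30.8 and 28.6 CPM in WT and 16.4 and 12.4 CPM in Pim3-/- ESCs (log2 fold change -1.04, SE 0.20, adjusted p = 0.0101 with edgeR). Cdkn2b had 6.05 and 6.09 CPM in WT and 3.18 and 2.60 CPM in Pim3-/- ESCs (log2 fold change -1.07, adjusted p = 0.0267 with edgeR). Both have 1000 to 2000 exon bases. With at least 10 counts required in every library, 7 targets rose, as did 2689 of all 15916 genes then tested. Leaving out a WT library lowered the number of targets that rose, and that of all tested genes as well.

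Markers of other cell states were compared with the 17.6% of all tested genes that rose and the 16.2% that fell. All 10 ESC markers were expressed, at 62.8 CPM or more in every library, and 1 rose and 4 fell. Most of them averaged above 300 CPM, a range in which 56.2% of tested genes fell and 3.14% rose. The part of level in the count of ESC markers was not tested. Their summed level was 9830 to 10900 CPM in WT and 6660 to 7010 CPM in Pim3-/- ESCs. In WT, Dppa5a (mean 3961 CPM, and 2027 CPM in Pim3-/- ESCs) and Pou5f1 (2244 and 1029 CPM) held most of that sum. Of the 10 markers, 4 had a log2 fold change above 0. Of 16 two-cell-like markers, genes of the totipotent embryo, 15 rose, and their summed level was 26.3 to 29.4 CPM in WT and 92.3 to 284 CPM in Pim3-/- ESCs. Of 9 tested primitive endoderm markers 8 rose (summed 401 to 411 CPM in WT and 541 to 569 CPM in Pim3-/- ESCs). Sparc, the tested marker that did not rise, held most of the sum, with a mean of 358 CPM in WT and 295 CPM in Pim3-/- ESCs. Some primitive endoderm markers were near silence in WT, such as Sox7 (3 and 0 counts) and Sox17 (1 and 5). Of the two-cell-like list, Zscan4b (5 and 7 counts) and Duxf3 (3 and 5) were also low there. The filter keeps such a gene only if it is higher in Pim3-/- ESCs. These genes therefore add no support for a change of their list. Among tested genes below 1 CPM on average in WT, 33.9% rose. Of 8 trophoblast markers 3 rose (144 to 146 CPM in WT, 131 to 154 CPM in Pim3-/- ESCs), of 4 fibroblast markers 1 rose (257 to 267 and 198 to 278 CPM) and of 6 neuroectoderm markers 1 fell (150 to 158 and 116 to 116 CPM). The summed trophoblast and fibroblast levels overlapped between the groups. Of the Polycomb targets, 12 are also markers in these lists, and in the other 22 tested targets 14 rose and 2 fell. A further 18 targets in no marker list had counts too low for a test. The 22 passed the same filter, so this count is no support for a change of the targets either. The 6 remaining fibroblast markers were not tested, with at most 30 counts. The part of these cell states in the levels of Eed, Cbx2, Ezhip and the targets was not tested.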

How the data were processed

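RNA-seq was analysed in E14 ESCs, with 2 libraries from WT samples and 2 from Pim3-/- clones. The authors deposited raw read counts per gene without normalization. The methods of the study name Cutadapt, Hisat2 and mm10, whereas the submitters' processing notes name Trim Galore, STAR, featureCounts and GRCm38, so the programs behind the counts are not settled. Strand use and reads with several locations are not stated. A table of repeat elements was not used.

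Of 31418 genes with at least 1 count, filterByExpr of edgeR 4.0.16 (minimum count 10) kept 18444. Counts were scaled by TMM factors (0.828 to 1.17) and compared with edgeR's quasi-likelihood test in R 4.3.3, adjusted over all tested genes, at a threshold of 0.05. The code was tested on simulated data. Replicates are numbered in the labels, and p-values measure only the spread between these samples, which for WT may be technical. The Pim3-/- libraries differed more from each other than the WT libraries did. The chi-square of counts per degree of freedom was 55.69 between the Pim3-/- libraries and 11.59 between the WT libraries. The fit used a dispersion shared by both groups. Exon lengths came from GENCODE for GRCm38. Per-kb values divide by the union of exons.

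The members and lists were chosen with earlier results of these data known. From each list, genes past the threshold were named where they were 4 or fewer, otherwise the 2 largest changes in each direction where the higher group had 10 counts or more in each of its libraries. A gene of the lists, counted in them, is not reported here by name. Bap1, Kdm6a and the markers Sox7, Sox17, Zscan4b and Duxf3 were named after their values were seen. So were the markers Dppa5a, Pou5f1, Sparc, Tfap2c, Krt8, Krt18, Vim, Pdgfrb and Tubb3. The alternatives were other scalings, other filters, the Wald test of DESeq2 1.42.0, a replicate block and leaving out each library.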

Additional observations from a re-analysis of the deposited data

How the results depend on the processing

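Over the 10 members and 11 alternatives, 93 of the log2 fold changes kept direction and side of the threshold, 8 changed direction, 4 newly passed and 5 no longer passed. The median log2 fold change of all genes moved by 0.449 with library totals, by 0.141 with upper-quartile factors, by 0.204 without a filter and by 0.192 with DESeq2, the last pair over 31418 genes. Higher genes made up 52.1% of all calls, 85.8% with library totals and 63.9% with upper-quartile factors. With library totals the log2 fold changes were 0.10 for Ezh2, 0.25 for Rnf2 and 0.30 for Ring1. There 3 members rose and 0 fell, 39 other pathway genes rose and 1 fell, and 0 targets fell. Of all 18444 tested genes, 6594 rose and 1094 fell there. With upper-quartile factors 2 other pathway genes and 2275 of all tested genes fell. With at least 10 counts in every library 7 targets rose, as did 2689 of 15916 tested genes. The cause was not tested.

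With 1 library left out, the lone library of its group was assumed to vary like the others, and genes called in all numbered 402 higher and 373 lower without WT replicate 1, 585 and 1061 without WT replicate 2, 5393 and 5255 without Pim3-/- replicate 1 and 4883 and 4846 without Pim3-/- replicate 2. The members that rose ranged from 0 to 2 and those that fell from 0 to 2, other pathway genes from 1 to 35 higher and from 1 to 9 lower, and targets from 3 to 23 higher and from 0 to 3 lower. The log2 fold changes ranged from -0.22 to 0.27 for Ezh1, from -0.0528 to 0.121 for Jarid2 and from -0.411 to 0.0439 for Ring1. Eed ranged from -0.997 to -0.86 and Cbx2 from 0.61 to 0.84.

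The replicate numbers name WT samples and Pim3-/- clones, with no stated link between them, and the deviations of same-numbered libraries from their group means correlated at 0.016 across genes. With a replicate block the calls numbered 3403 higher and 3272 lower, against 3246 and 2987, with 1 member higher and 1 lower, 19 and 5 other pathway genes and 21 and 3 targets. With 27 to 71 counts per library, the 95% confidence interval of Cbx8 ran from -0.31 to 1.44.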
